A study of Mus musculus with 12 samples.

Results

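An intron ends at an acceptor, the 3′ splice site, and 707 of the 19323 splicing events measured in murine erythroblasts were a choice between 2 acceptors that lie 10 to 30 nucleotides apart. They were picked by event type and distance alone, as every event typed as alternative acceptor with a variable part of 10 to 30 nucleotides. No PSI or test result is part of this rule, but the rule was chosen with earlier results of these data known. The events themselves were assembled from sequenced reads, so a path without reads in 1 genotype is listed through reads of the other. These acceptor pairs lay in 602 named genes, with 10 pairs in no named gene, and comprised 682 different pairs of acceptor positions, since some pairs were seen with more than 1 donor or exon context. The cells were G1E-ER4, a murine proerythroblast line without GATA1 of its own, in which β-estradiol activates a fusion of GATA1 with the estrogen receptor and so starts erythroid differentiation. Sf3b1 K700E/+ cells were compared with Sf3b1 +/+ cells, 3 libraries each, and both had received β-estradiol for 24 h. Both clones came from the same line by CRISPR-Cas9 editing with a hygromycin cassette that was later excised with flippase. Each genotype is 1 clone, so genotype and clone cannot be told apart, and nothing in the labels says that the libraries came from separate cultures, so p-values measure the spread between libraries. Poly(A) RNA was sequenced as stranded paired-end libraries, and libraries taken before β-estradiol were not analysed here.

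SF3B1 is the largest subunit of the SF3b complex, the part of the U2 small nuclear ribonucleoprotein that settles on the branch point, the adenosine a short way upstream of the acceptor. The spliceosome then normally joins the exon at the AG that follows the branch point and its pyrimidine-rich stretch. Hotspot mutations of human SF3B1, of which K700E is the most frequent in myelodysplastic syndromes with ring sideroblasts, are known for the use of cryptic AG dinucleotides a little upstream of the usual acceptor.

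In all 707 pairs the longer path of the event, which keeps the variable part in the exon, used the upstream acceptor, nearer the donor, and the shorter path used the downstream acceptor. The measure is the PSI, the share of the longer path between 0 and 1, so a higher PSI means more use of the upstream acceptor. According to the annotation in the deposited events, both acceptors were annotated in 318 pairs, only the downstream one in 235, only the upstream one in 104 and neither in 50. The donor was annotated in 684 pairs.

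The acceptor sequences below show what lies between the paired acceptors, for pairs whose PSI was higher, lower or not called in Sf3b1 K700E/+ libraries. Bases in capitals are the variable part, between the upstream and the downstream acceptor, and end in the AG of the downstream acceptor. The 40 lower-case bases before it, where shown, are intron in both paths and end in the AG of the upstream acceptor, and the 10 lower-case bases after it are exon in both paths. Ciao3, Tut7, Tnpo3 and Map3k7 had a higher PSI in Sf3b1 K700E/+ libraries, Hnrnpc was not called and Htt had a lower PSI.
Ciao3 17 nucleotides: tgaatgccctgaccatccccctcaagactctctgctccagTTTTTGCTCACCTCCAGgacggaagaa
Tut7 17 nucleotides: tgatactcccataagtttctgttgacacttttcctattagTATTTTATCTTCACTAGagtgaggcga
Tnpo3 18 nucleotides: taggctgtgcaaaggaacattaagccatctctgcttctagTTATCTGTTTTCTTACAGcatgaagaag
Map3k7 23 nucleotides: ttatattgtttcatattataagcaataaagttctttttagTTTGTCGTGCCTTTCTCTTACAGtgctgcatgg
Hnrnpc 21 nucleotides: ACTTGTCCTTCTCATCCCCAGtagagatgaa
Htt 23 nucleotides: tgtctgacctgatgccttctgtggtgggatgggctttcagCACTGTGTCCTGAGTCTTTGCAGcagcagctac

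These stretches are read on the strand of the gene from the GENCODE mouse release 21 transcripts, matched by gene identifier and intron length, and coordinates below are those of the deposited events on GRCm39. The variable parts lie at chr17:25995923-25995939 (Ciao3, plus strand), chr13:59930158-59930174 (Tut7, minus strand) and chr6:29554962-29554979 (Tnpo3, minus strand). The others lie at chr4:31979713-31979735 (Map3k7, plus strand), chr14:52312873-52312893 (Hnrnpc, minus strand) and chr5:34979055-34979077 (Htt, plus strand).

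Among the 707 pairs, 621 matched a gene model and 471 had a variable part that the transcripts hold, of which 470 ended in AG. Both acceptors therefore sat behind an AG in nearly every pair that could be read, since 200 of 203 pairs with intron bases read also had AG before the upstream acceptor. The stretch between the acceptors was rich in C and T. Without its last 3 bases it held a median of 79.3% C or T in the 62 pairs with a higher PSI in Sf3b1 K700E/+ libraries, 65% in the 15 pairs with a lower PSI and 69.2% in the 346 tested pairs that were not called. In the 184 pairs with 40 intron bases read, the 20 bases that end 3 bases before the upstream acceptor were also measured. Their median was 62.5% C or T and 20% A in the 36 pairs with a higher PSI, against 65% and 20% in the 127 that were not called. The C or T median was 55% against 60% where only the downstream acceptor was annotated, and 67.5% against 65% where both were. Single positions, picked after their values were seen, differed more. At intron bases -14 and -15 from the upstream acceptor, A made up 38.9% in the pairs with a higher PSI, against 14.2% and 17.3%. At base -20 it made up 13.9%, against 26.0%. These medians and shares are descriptions of the pairs that annotated transcripts cover, and no test was made on them.

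The upstream acceptor was used more in Sf3b1 K700E/+ libraries in a large part of the acceptor pairs. A minimum of 10 reads per library, summed over the paths, was met by 604 pairs, of which 147 had a higher and 19 a lower PSI, at an adjusted p under 0.05 and a PSI difference over 0.10. The pairs called higher made up 24.3% of the pairs tested, beside 2.18% of all 18114 events tested in the same fit, and the pairs called lower made up 3.15%, beside 4.11% of all events. The median PSI difference was 0.0325 over the tested pairs and -0.0109 over all tested events. Every Sf3b1 K700E/+ library lay above every Sf3b1 +/+ library in 235 tested pairs, where 8.90% of all events were separated in this direction, and in 146 of the 147 pairs called higher. The exception was Zbtb40, a zinc finger gene, which is named here after its values were seen. The remaining 103 pairs were too thinly covered to test.

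The pairs called higher lay in 139 genes and comprised 144 different acceptor pairs. Their median PSI was 0.288, 0.277 and 0.286 in the Sf3b1 K700E/+ libraries, against 0.0153, 0.0192 and 0.0196 in the Sf3b1 +/+ libraries. In most of them the upstream acceptor was hardly used without the mutation, since 103 of the 147 had a mean PSI under 0.05 in Sf3b1 +/+ libraries. In 24 there was no longer-path read in any of these, so their upstream acceptor is listed through Sf3b1 K700E/+ reads alone. The PSI difference had a median of 0.224 and reached 0.733. It exceeded 0.20 in 85 pairs and 0.50 in 17, and the upstream acceptor was the major one in Sf3b1 K700E/+ libraries, with a PSI over 0.50, in 36.

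**Figure D1:**
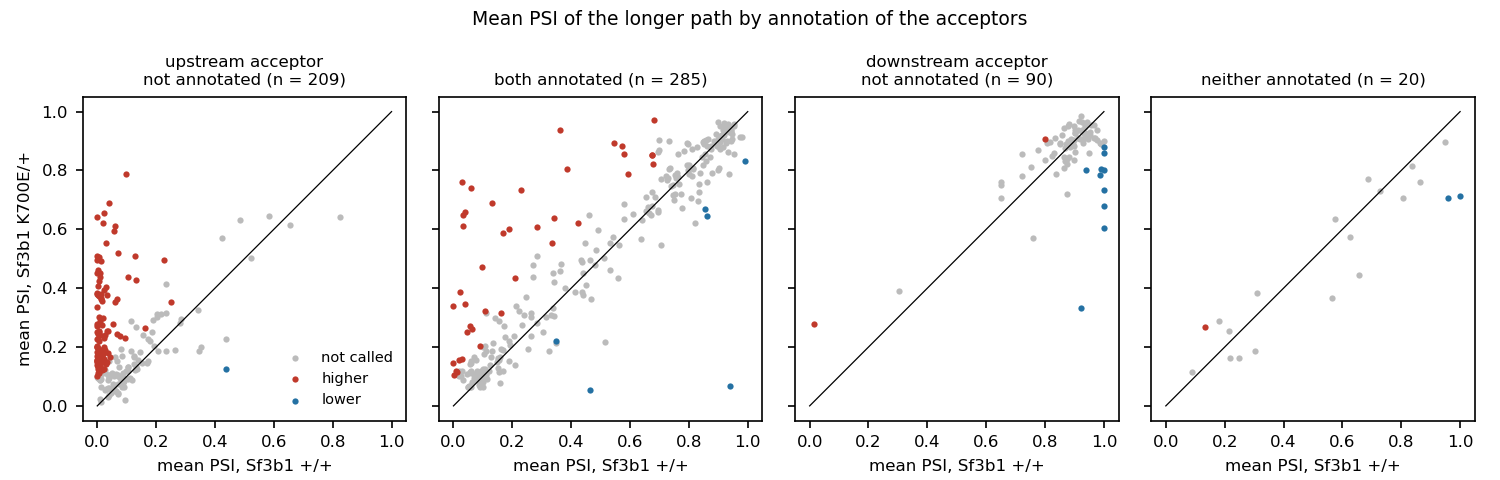
Mean PSI of the longer path in 3 Sf3b1 K700E/+ libraries (vertical axis, 0 to 1) against 3 Sf3b1 +/+ libraries (horizontal axis, 0 to 1) for each of the 604 tested acceptor pairs, in 4 panels by annotation of the acceptors; red points were called higher and blue points lower in Sf3b1 K700E/+, and the line marks equal values. Red points gather at the left edge of the panel with an unannotated upstream acceptor, and blue points at the right edge of the panel with an unannotated downstream acceptor.

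The annotation of the acceptors divided the pairs. Where only the downstream acceptor was annotated, 104 of 209 tested pairs (49.8%) were called higher and 1 lower, with a median PSI of 0.175, 0.174 and 0.174 in Sf3b1 K700E/+ libraries and 0.0372, 0.0333 and 0.0365 in Sf3b1 +/+ libraries. Where both were annotated, 40 of 285 (14%) were called higher and 6 lower. The 40 had a median PSI of 0.611, 0.572 and 0.593 in Sf3b1 K700E/+ libraries, against 0.118, 0.127 and 0.125 in Sf3b1 +/+ libraries. Where only the upstream acceptor was annotated, the balance was the other way, with 2 of 90 called higher (2.22%) and 10 lower (11.1%). The shares over all tested events were 2.18% and 4.11%. Of the 20 tested pairs with neither annotated, 1 was called higher and 2 lower. The 104 pairs with an unannotated upstream acceptor that were not called were not all still. Of them, 14 passed the test with a smaller difference, all toward a higher PSI, 10 moved by over 0.10 without passing the test and 80 did neither. Starting levels limit these directions, since a PSI near 0 can hardly fall and one near 1 can hardly rise. Where only the upstream acceptor was annotated, the median PSI in Sf3b1 +/+ libraries was 0.902, 0.904 and 0.918. An unannotated acceptor is also listed only where reads showed it. The part of both in the shares of each class was not tested.

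Calls were unevenly spread over the distances between the acceptors. The share called higher was 21.2% of 66 pairs at 10 to 12 nucleotides, 36.4% of 121 at 13 to 15, 37.8% of 119 at 16 to 18, 21.2% of 113 at 19 to 21, 18.8% of 64 at 22 to 24 and 6.61% of 121 at 25 to 30. The median distance of the pairs called higher was 17 nucleotides, and that of all tested pairs 18. At the limits of the range, none of 14 tested pairs was called higher and 1 lower at 10 nucleotides, and 1 of 19 was called higher at 30. Just outside, 1 of 32 was called higher and 5 lower at 9 nucleotides, and 1 of 16 was called higher and 1 lower at 31. Acceptors under 10 nucleotides apart gave 1 higher and 8 lower calls among 782 tested, and those over 30 apart gave 41 and 100 among 1624. Unannotated upstream acceptors were called higher in 0 of 96 tested events under 10 nucleotides and in 16 of 292 (5.48%) over 30. Where only the upstream acceptor was annotated, 30 of 266 tested events over 30 nucleotides were called lower (11.3%) and 3 higher (1.13%). Under 10 nucleotides, 4 of 197 events of that class were called lower (2.03%) and 0 higher. The calls all come from 1 fit, and the differences between distance ranges were not themselves tested.

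**Figure D2:**
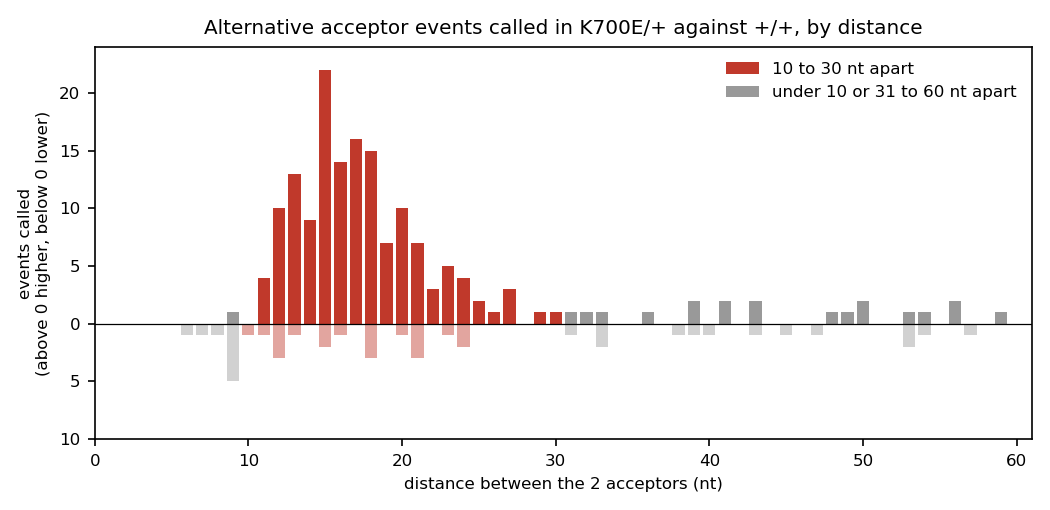
Number of alternative acceptor events called in Sf3b1 K700E/+ against Sf3b1 +/+ libraries (vertical axis; bars above 0 were called higher, paler bars below 0 lower) at each distance between the acceptors from 1 to 60 nucleotides (horizontal axis); red bars are pairs 10 to 30 nucleotides apart and grey bars are other distances. The tallest bar above 0 stands at 15 nucleotides, where 22 of 59 tested pairs were called higher.

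A variable part whose length is not a multiple of 3 shifts the reading frame when it lies in coding sequence. Such lengths made up 85 of the 147 pairs called higher, 27.1% of the 314 tested with such a length, and multiples of 3 made up 62, or 21.4% of 290. The variable part was outside annotated coding sequence in 112 of the pairs called higher, where 268 such pairs were tested, and inside it in 34 of 330. Variable parts behind unannotated upstream acceptors are counted as outside it, being annotated as intron.

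The largest difference was in Ciao3, a component of the machinery that delivers iron-sulfur clusters to cytosolic and nuclear proteins. Its PSI was 0.746, 0.738 and 0.797 in Sf3b1 K700E/+ libraries, against 0.0262, 0.0137 and 0.0436 in Sf3b1 +/+ libraries, with means of 0.760 ± 0.0322 and 0.0279 ± 0.0150 (SD, n = 3 each). The difference was 0.733 at an adjusted p of 2.05e-14. In read numbers, the longer path had 260 reads and the shorter path 69 in Sf3b1 K700E/+ libraries. The numbers were 12 and 351 in Sf3b1 +/+ libraries. Longer-path reads include those within the variable part, which need not cross the upstream splice junction. By PSI, the major acceptor of this intron was a different one in each genotype. The distance of 17 bases is not a multiple of 3, and both acceptors are annotated.

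Pih1d1, a subunit of the R2TP co-chaperone complex, had the same pair of acceptors 13 nucleotides apart in 2 events with different donors. With the nearer donor its PSI was 0.707, 0.655 and 0.860 in Sf3b1 K700E/+ libraries and 0.0983, 0.0365 and 0.0488 in Sf3b1 +/+ libraries. With the farther donor, whose intron is 1885 nucleotides long, it was 0.643, 0.645 and 0.663 in Sf3b1 K700E/+ libraries and 0.0461, 0.0269 and 0.0262 in Sf3b1 +/+ libraries. The differences were 0.680 and 0.617 (adjusted p of 5.26e-11 and 1.55e-16), so the upstream acceptor was used more from either donor, and the 2 events may share reads.

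Tut7, a terminal uridylyltransferase that adds uridines to the ends of RNAs, gained an unannotated upstream acceptor. The PSI was 0.751, 0.574 and 0.647 in Sf3b1 K700E/+ libraries, against 0.0204, 0.0235 and 0.0259 in Sf3b1 +/+ libraries, a difference of 0.634 (adjusted p = 5.67e-14). Its paralog Tut4, chosen after its values were seen, also moved, at 2 upstream acceptors that lie 12 and 15 nucleotides before the same downstream acceptor. For the pair 12 nucleotides apart the PSI was 0.519, 0.460 and 0.512 in Sf3b1 K700E/+ libraries and 0.280, 0.151 and 0.245 in Sf3b1 +/+ libraries (adjusted p = 0.00055).

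Tnpo3, transportin 3, carries serine and arginine rich splicing factors into the nucleus. With 845 longer-path and 352 shorter-path reads in Sf3b1 K700E/+ libraries and 50 and 989 in Sf3b1 +/+ libraries, it was the most deeply covered of the 12 largest rises. The PSI was 0.716, 0.614 and 0.650 in Sf3b1 K700E/+ libraries and 0.0468, 0.0357 and 0.0383 in Sf3b1 +/+ libraries, and its length of 18 bases is a multiple of 3 (difference 0.620, adjusted p = 4.86e-17).

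Unannotated upstream acceptors also led in Dqx1, a member of the DEAQ-box family, in Trmo, a tRNA methyltransferase, in Baz2b, a bromodomain protein, and in Ppm1m, a protein phosphatase. The Dqx1 PSI was 0.853, 0.714 and 0.800 in Sf3b1 K700E/+ libraries and 0.0876, 0.116 and 0.0846 in Sf3b1 +/+ libraries, over an intron of only 106 nucleotides. Trmo was at 0.686, 0.686 and 0.696 in Sf3b1 K700E/+ libraries, against 0.0233, 0.0333 and 0.0599 in Sf3b1 +/+ libraries. Baz2b was at 0.611, 0.681 and 0.635 in Sf3b1 K700E/+ libraries, while no longer-path read was found among 131 reads of the Sf3b1 +/+ libraries, which allows a share of up to 2.29%. For Ppm1m the values were 0.674, 0.565 and 0.629 in Sf3b1 K700E/+ libraries and 0.0238, 0.0144 and 0.0248 in Sf3b1 +/+ libraries. In all 4 genes the downstream acceptor was the minor one in Sf3b1 K700E/+ libraries and the major one in Sf3b1 +/+ libraries (adjusted p between 6e-11 and 6.69e-08).

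Among pairs with both acceptors annotated, Alg8, a glucosyltransferase that builds the precursor of N-linked glycans, had a PSI of 0.649, 0.674 and 0.513 in Sf3b1 K700E/+ libraries, against 0.0361, 0.0260 and 0.0358 in Sf3b1 +/+ libraries. In Commd4, a COMM domain protein, the upstream acceptor had a PSI of 0.909, 0.975 and 0.925 in Sf3b1 K700E/+ libraries. In Sf3b1 +/+ libraries the PSI was 0.282, 0.411 and 0.395. The difference of 0.574 became 0.9 with the deposited PSI. How frequent this acceptor already was in Sf3b1 +/+ libraries therefore depends on the PSI definition. The pair has no result with the higher coverage minimum, with the boundary with fewer reads or without flagged events, all described below. Another acceptor of the same Commd4 intron, named after its values were seen, lies 29 nucleotides further downstream. Against that one, the middle acceptor had a PSI of 0.268, 0.209 and 0.309 in Sf3b1 K700E/+ libraries and 0.0493, 0.0780 and 0.0583 in Sf3b1 +/+ libraries, so the use moved toward the donor at both steps (adjusted p of 2.1e-07 and 1.32e-07). Pbxip1, a PBX-interacting protein, was the least precise of the 12 largest rises, with 0.555, 0.641 and 0.877 in Sf3b1 K700E/+ libraries and 0.137, 0.137 and 0.117 in Sf3b1 +/+ libraries, on 41 and 38 reads (adjusted p = 0.00202).

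**Figure D3:**
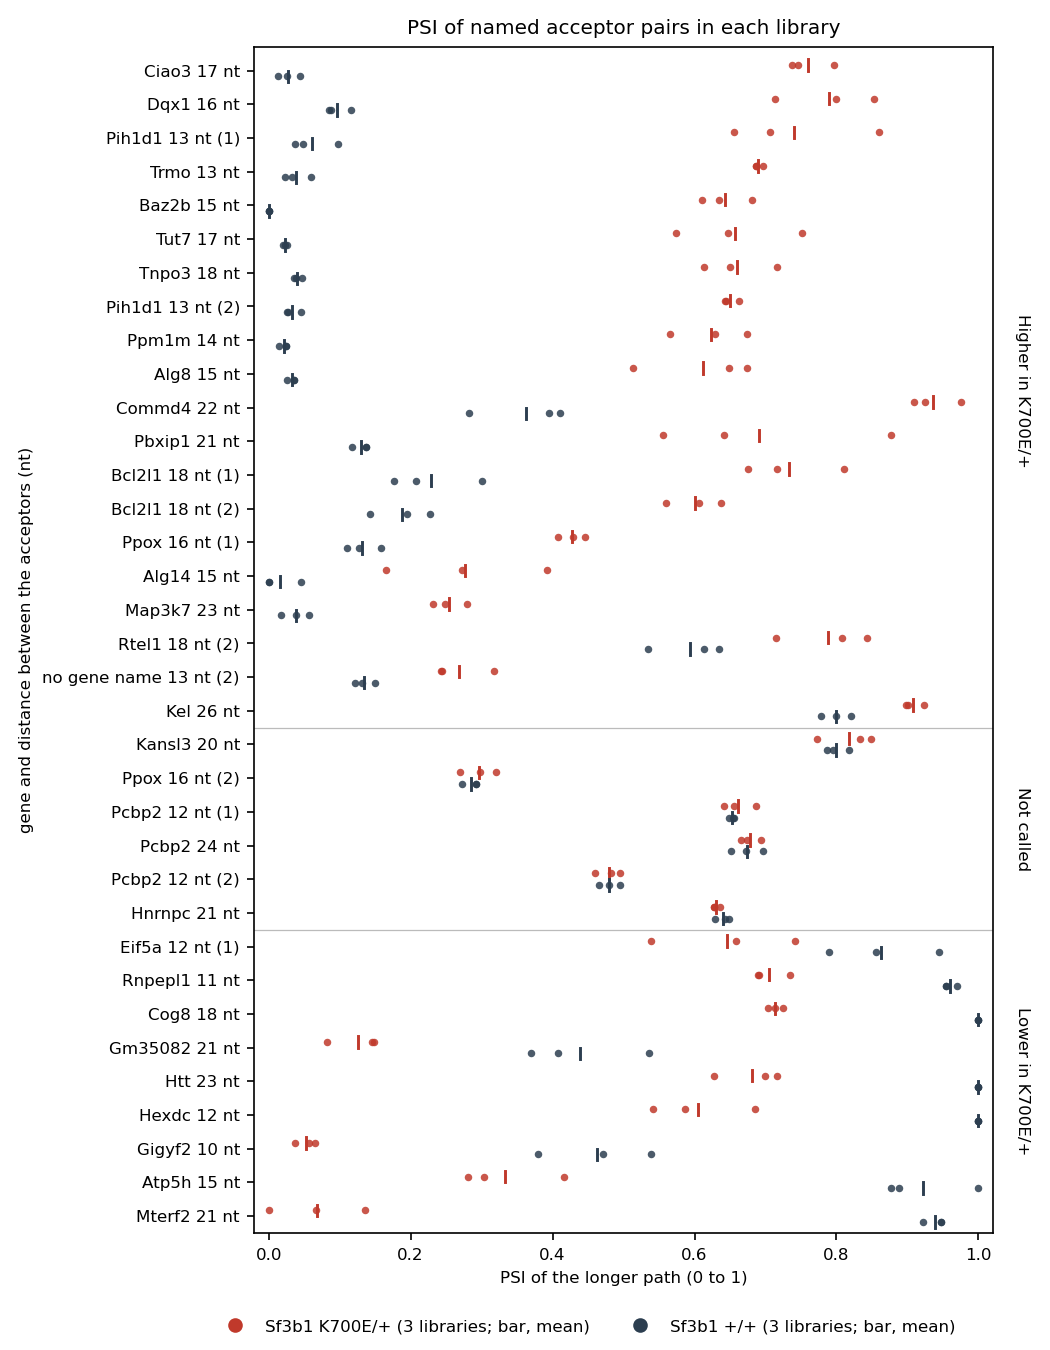
PSI of the longer path (horizontal axis, 0 to 1) in each library for the acceptor pairs named by rule, from the largest rise at the top to the largest fall at the bottom; red points are 3 Sf3b1 K700E/+ libraries, drawn above the dark points of 3 Sf3b1 +/+ libraries, bars are means, and a number in parentheses tells apart pairs of the same gene and distance. The points of both genotypes overlap in the 6 pairs that were not called and are apart in all others.

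Genes that human studies know as targets of mutant SF3B1 had 8 pairs in 6 genes. Of these, 6 pairs could be tested and 4 were called higher, with a median PSI difference of 0.256, where 24.3% of all tested pairs were called higher. The 4 calls include the same Bcl2l1 acceptors seen from 2 donors. Ppox, protoporphyrinogen oxidase of heme synthesis, had 2 pairs, both 16 nucleotides apart with an unannotated upstream acceptor. In the pair at chr1:171105769-171105784 the PSI was 0.407, 0.446 and 0.429 in Sf3b1 K700E/+ libraries and 0.127, 0.158 and 0.110 in Sf3b1 +/+ libraries (difference 0.296, adjusted p = 1.83e-08). In the other, at chr1:171107830-171107845, it was 0.320, 0.269 and 0.298 in Sf3b1 K700E/+ libraries, against 0.292, 0.273 and 0.292 in Sf3b1 +/+ libraries, and the genotypes overlapped (adjusted p = 0.929). Both Ppox pairs have the same distance and the same annotation, and the difference between them was not tested.

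Map3k7, the kinase TAK1 of NF-κB signalling, had a PSI of 0.280, 0.249 and 0.232 in Sf3b1 K700E/+ libraries, against 0.0571, 0.0388 and 0.0175 in Sf3b1 +/+ libraries (difference 0.216, adjusted p = 1.19e-05). Bcl2l1 encodes Bcl-x, which erythroblasts need for survival, and its pair 18 nucleotides apart was seen from 2 donors. From one, the PSI was 0.716, 0.810 and 0.675 in Sf3b1 K700E/+ libraries and 0.208, 0.301 and 0.176 in Sf3b1 +/+ libraries, and from the other it was 0.638, 0.560 and 0.606 in Sf3b1 K700E/+ libraries and 0.143, 0.227 and 0.195 in Sf3b1 +/+ libraries. Both were called (adjusted p of 2.19e-06 and 2.1e-07), and the 2 events may share reads. Kansl3, a subunit of the NSL histone acetyltransferase complex, was at 0.772, 0.849 and 0.833 in Sf3b1 K700E/+ libraries, against 0.817, 0.795 and 0.787 in Sf3b1 +/+ libraries, and was not called (adjusted p = 0.91). The pairs in Dph5 and Hint2, both with neither acceptor annotated, were too thinly covered, with 66 and 14 reads in Sf3b1 K700E/+ libraries and 32 and 25 in Sf3b1 +/+ libraries.

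Pathway genes were counted next, beside the 24.3% of all tested pairs that were called higher. Of 45 genes of heme, iron-sulfur and mitochondrial iron metabolism, 4 had a pair, and of their 5 tested pairs the 2 in Ciao3 and Ppox were called higher. The others, of which Isca2 and Slc25a38 are named after their values were seen, were the second Ppox pair, Isca2 (0.790 in Sf3b1 K700E/+ and 0.758 in Sf3b1 +/+ libraries, adjusted p = 0.56) and the mitochondrial glycine carrier gene Slc25a38 (0.203 in Sf3b1 K700E/+ and 0.194 in Sf3b1 +/+ libraries, adjusted p = 0.893). Of 143 genes of DNA repair and replication, 9 had a pair, and 1 of 9 tested pairs was called higher. It lay in Rtel1, a helicase of telomeres and replication forks, with a PSI of 0.843, 0.715 and 0.808 in Sf3b1 K700E/+ libraries and 0.535, 0.634 and 0.613 in Sf3b1 +/+ libraries (difference 0.194, adjusted p = 0.0138). This call was lost with DESeq2 (adjusted p = 0.113), with limma (adjusted p = 0.104) and without replicate 1 or 3 of Sf3b1 K700E/+ or replicate 1 of Sf3b1 +/+ (adjusted p of 0.104, 0.0518 and 0.0634). Rtel1 also held a tested pair that was not called. Of 108 genes of RNA splicing and decay, 7 had a pair and none of the 6 tested pairs was called.

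Pairs that were not called included the most deeply covered ones. Hnrnpc, an RNA-binding protein of nascent transcripts, had a PSI of 0.627, 0.636 and 0.627 in Sf3b1 K700E/+ libraries, against 0.629, 0.649 and 0.643 in Sf3b1 +/+ libraries, on 8833 and 7202 reads. Pcbp2, a poly(C)-binding protein, had 3 such events. The PSI of its pair 24 nucleotides apart was 0.666, 0.693 and 0.674 in Sf3b1 K700E/+ libraries and 0.697, 0.673 and 0.651 in Sf3b1 +/+ libraries. Its pair 12 nucleotides apart, seen in 2 events, averaged 0.661 and 0.479 in Sf3b1 K700E/+ libraries and 0.653 and 0.480 in Sf3b1 +/+ libraries. In these 4 events the genotypes overlapped and their means differed by no more than 0.0102. All of them have annotated acceptors that share their use in both genotypes, and their variable parts lie in coding sequence.

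The downstream acceptor was used more in 19 pairs, each in a different gene, and in all 19 every Sf3b1 K700E/+ library lay below every Sf3b1 +/+ library, as it did in 57 of all tested pairs and in 16.9% of all tested events. Their median PSI was 0.699, 0.725 and 0.690 in Sf3b1 K700E/+ libraries, against 0.984, 0.967 and 0.991 in Sf3b1 +/+ libraries. In 7 there was no shorter-path read in any Sf3b1 +/+ library, so their downstream acceptor is listed through Sf3b1 K700E/+ reads alone. In 10 of the 19 the downstream acceptor alone was unannotated, and in 2 neither acceptor was annotated. The largest was in Mterf2, a mitochondrial transcription termination factor, with both acceptors annotated and a PSI of 0.0670, 0.136 and 0 in Sf3b1 K700E/+ libraries and 0.922, 0.948 and 0.948 in Sf3b1 +/+ libraries (difference -0.871, adjusted p = 4.8e-08). It rested on 58 and 64 reads. Gigyf2, a repressor of translation, was at 0.0573, 0.0365 and 0.0654 in Sf3b1 K700E/+ libraries, against 0.380, 0.538 and 0.471 in Sf3b1 +/+ libraries, at the shortest distance of 10 nucleotides. Here 442 reads took the shorter path in Sf3b1 K700E/+ libraries, against 39 in Sf3b1 +/+ libraries, while 28 and 38 reads took the longer one. Gigyf2 also held a tested pair that was not called.

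Unannotated downstream acceptors appeared in Atp5h, subunit d of the mitochondrial ATP synthase, in Hexdc, a hexosaminidase, and in Htt, huntingtin. The Atp5h PSI was 0.416, 0.304 and 0.281 in Sf3b1 K700E/+ libraries and 0.877, 0.888 and 1 in Sf3b1 +/+ libraries (adjusted p = 3.42e-05). Hexdc was at 0.541, 0.587 and 0.685 in Sf3b1 K700E/+ libraries and Htt at 0.699, 0.627 and 0.716, where none of 61 and 97 reads in Sf3b1 +/+ libraries came from the downstream acceptor, which allows shares of up to 4.92% and 3.09% (adjusted p of 0.000144 and 0.000342). In Cog8, of the conserved oligomeric Golgi complex, with neither acceptor annotated, the PSI was 0.704, 0.725 and 0.713 in Sf3b1 K700E/+ libraries. All 124 reads of the Sf3b1 +/+ libraries took the longer path (adjusted p = 9.43e-06). Rnpepl1, an aminopeptidase-like gene of the same class, had 0.691, 0.735 and 0.689 in Sf3b1 K700E/+ libraries and 0.970, 0.955 and 0.955 in Sf3b1 +/+ libraries (adjusted p = 0.00144). The predicted gene Gm35082 held the 1 fall among pairs where only the downstream acceptor was annotated, with 0.149, 0.145 and 0.0824 in Sf3b1 K700E/+ libraries and 0.408, 0.536 and 0.370 in Sf3b1 +/+ libraries.

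The call in Eif5a, a translation factor, was the weakest of the named falls. Its PSI was 0.741, 0.659 and 0.538 in Sf3b1 K700E/+ libraries, against 0.856, 0.789 and 0.944 in Sf3b1 +/+ libraries (difference -0.217, adjusted p = 0.0234). It was lost with DESeq2 (adjusted p = 0.14), with limma (adjusted p = 0.158), without replicate 2 or 3 of Sf3b1 K700E/+ (adjusted p of 0.0614 and 0.133) and without replicate 1 or 3 of Sf3b1 +/+ (adjusted p of 0.0712 and 0.136). Eif5a also held a tested pair that was not called.

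Where only the upstream acceptor was annotated, 2 pairs rose. Alg14, a partner of the enzyme for the second sugar of the N-glycan precursor, had a PSI of 0.273, 0.392 and 0.166 in Sf3b1 K700E/+ libraries and 0, 0 and 0.0460 in Sf3b1 +/+ libraries (adjusted p = 0.000571). Kel, the Kell blood group protein of red cells, was at 0.898, 0.901 and 0.924 in Sf3b1 K700E/+ libraries and 0.778, 0.800 and 0.820 in Sf3b1 +/+ libraries (difference 0.108, adjusted p = 5.47e-05). Without replicate 1 of Sf3b1 +/+ its difference was 0.0975, under the threshold. The 1 rise among pairs with neither acceptor annotated, 13 nucleotides apart at chrX:169092263-169092275 in no named gene, was 0.244, 0.243 and 0.317 in Sf3b1 K700E/+ libraries and 0.122, 0.150 and 0.131 in Sf3b1 +/+ libraries (adjusted p = 0.0421). That call was lost when any of the 6 libraries was left out (adjusted p between 0.0652 and 0.193).

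Calls in both directions occurred in 2 genes, Cdk8 and Kif15, which are described after their values were seen. Cdk8, the kinase of the Mediator complex, has 3 annotated acceptors in a row, each 15 nucleotides from the next, behind 1 donor. The middle one against the one farthest from the donor had a PSI of 0.836, 0.836 and 0.890 in Sf3b1 K700E/+ libraries and 0.645, 0.685 and 0.694 in Sf3b1 +/+ libraries (adjusted p = 0.000853). The nearest one against the middle one had a PSI of 0.667, 0.648 and 0.690 in Sf3b1 K700E/+ libraries and 0.877, 0.858 and 0.829 in Sf3b1 +/+ libraries (adjusted p = 1.22e-05). The nearest against the farthest, 30 nucleotides apart, was not called, with 0.889, 0.885 and 0.939 in Sf3b1 K700E/+ libraries and 0.843, 0.868 and 0.863 in Sf3b1 +/+ libraries (adjusted p = 0.184). The middle acceptor thus gained on both of its neighbours, and the 3 events may share reads. Kif15, a mitotic kinesin, had its calls in different introns. In one, an unannotated upstream acceptor 16 nucleotides before the usual one had a PSI of 0.414, 0.383 and 0.322 in Sf3b1 K700E/+ libraries and 0, 0.00425 and 0.0154 in Sf3b1 +/+ libraries. In the other, an unannotated downstream acceptor 13 nucleotides after the usual one brought the PSI to 0.779, 0.804 and 0.817 in Sf3b1 K700E/+ libraries, with none of 704 reads from it in Sf3b1 +/+ libraries.

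The level of the host genes was compared from the gene counts. Of 595 genes with an acceptor pair that were tested, 120 were higher and 186 lower in Sf3b1 K700E/+ libraries at an adjusted p under 0.05, that is 20.2% and 31.3%, beside 21.3% and 23.1% of all 12547 genes tested. Host genes of pairs called higher were lower in 62 of 139 cases (44.6%) and higher in 22, with a median log2 fold change of -0.15, against -0.01 over all genes. Where the variable part was not a multiple of 3, 45 of 81 were lower and 11 higher, with a median of -0.26, and where it was, 17 of 59 were lower and 11 higher, with a median of -0.02. The contrast was smaller among pairs with a Sf3b1 K700E/+ PSI over 0.30. There 21 of 38 were lower and 6 higher without a multiple of 3, with a median of -0.24. With a multiple of 3, 10 of 27 were lower and 4 higher, with a median of -0.13. Host genes of pairs called lower had a similar share, with 9 of 19 lower (47.4%), 4 higher and a median of -0.17. Genes whose tested pairs included one that was not called had a median of 0.00 over 387 genes, of which 104 were lower and 82 higher. In bulk RNA, fewer cells of a type and less RNA per cell cannot be told apart, and the differences between these sets of genes were not tested.

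**Figure D4:**
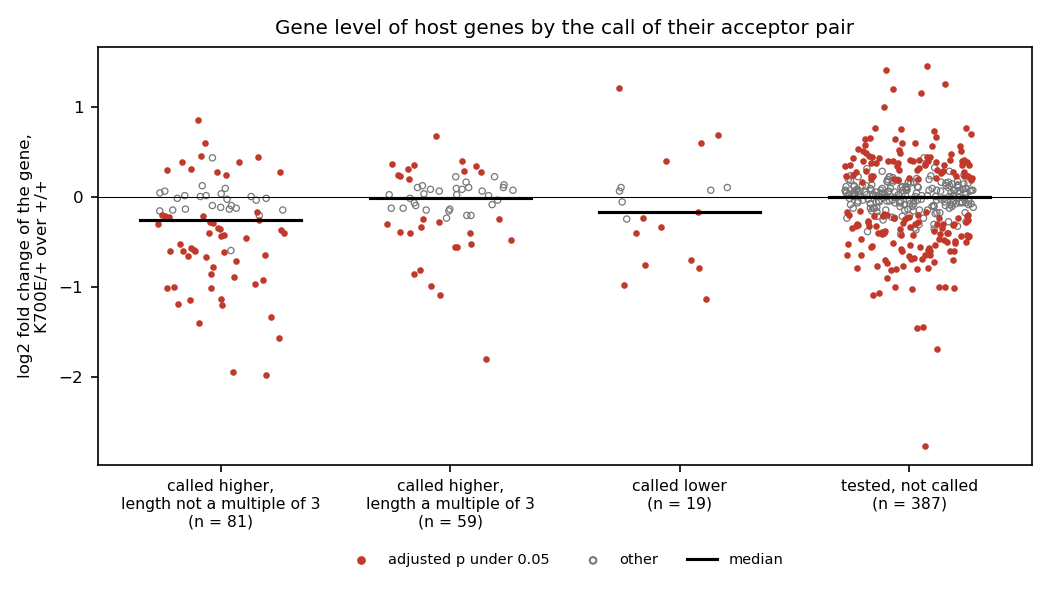
Log2 fold change of host gene level in Sf3b1 K700E/+ over Sf3b1 +/+ libraries (vertical axis), 1 point per gene, for genes with a pair called higher and a length that is not a multiple of 3 (n = 81), called higher with a multiple of 3 (n = 59), called lower (n = 19) and tested but not called (n = 387); filled points have an adjusted p under 0.05 and bars are medians. The median lies at -0.26 in the first column and at -0.02 in the second.

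Among the genes named above, Ppm1m was at 6.30, 6.08 and 6.04 CPM (counts scaled to library size after TMM normalization) in Sf3b1 K700E/+ libraries, against 21.9, 25.5 and 24.8 CPM in Sf3b1 +/+ libraries, a log2 fold change of -1.98 ± 0.09 (SE, adjusted p = 1.19e-06). Tut7 was at 81.7, 76.0 and 78.1 CPM in Sf3b1 K700E/+ libraries and 167, 178 and 174 CPM in Sf3b1 +/+ libraries, and Dqx1 at 10.8, 13.7 and 12.9 CPM in Sf3b1 K700E/+ libraries and 21.8, 26.7 and 26.4 CPM in Sf3b1 +/+ libraries (log2 fold changes of -1.15 ± 0.06 and -1.02 ± 0.12). Ciao3 averaged 28.5 ± 0.740 CPM in Sf3b1 K700E/+ and 43.3 ± 1.20 CPM in Sf3b1 +/+ libraries, and Ppox and Map3k7 were lower as well, with log2 fold changes of -0.41 ± 0.07 and -0.46 ± 0.08 (SE, adjusted p of 0.0015 and 0.00143). Pih1d1 was at 67.2, 67.0 and 70.8 CPM in Sf3b1 K700E/+ libraries, above the 51.0, 58.4 and 55.2 CPM in Sf3b1 +/+ libraries (adjusted p = 0.00473). Trmo was at 17.4 ± 1.42 CPM in Sf3b1 K700E/+ and 16.9 ± 0.717 CPM in Sf3b1 +/+ libraries (SD, n = 3 each; adjusted p = 0.801). Of the genes whose variable part has a length that is a multiple of 3, Tnpo3 differed by -0.02 ± 0.06 and Baz2b by -0.15 ± 0.13 on the log2 scale, neither past the test, and Alg8 was higher by 0.67 ± 0.08.

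Other host genes of pairs called higher fell further than most, and are named after their values were seen. Fxr1, an RNA-binding relative of the fragile X protein, was at 25.4, 24.7 and 24.2 CPM in Sf3b1 K700E/+ libraries, against 84.2, 86.4 and 87.3 CPM in Sf3b1 +/+ libraries, with a variable part of 15 bases and a PSI of 0.525, 0.529 and 0.466 in Sf3b1 K700E/+ libraries, against 0.00598, 0.00555 and 0.0104 in Sf3b1 +/+ libraries. Get4, which helps insert tail-anchored membrane proteins, was at 35.2, 35.4 and 36.2 CPM in Sf3b1 K700E/+ libraries and 151, 135 and 123 CPM in Sf3b1 +/+ libraries, with a PSI of 0.386, 0.403 and 0.279 in Sf3b1 K700E/+ libraries, against 0.0136, 0.0216 and 0.0154 in Sf3b1 +/+ libraries. Both fell by more than the spread between libraries (log2 fold changes of -1.81 ± 0.06 and -1.95 ± 0.08, SE). Among hosts of pairs called lower, Gigyf2 and Htt fell by 0.79 and 0.76 on the log2 scale, and Polr3e, a subunit of RNA polymerase III that is also named after its values were seen, was at 150, 130 and 149 CPM in Sf3b1 K700E/+ libraries, against 70.5, 57.8 and 55.6 CPM in Sf3b1 +/+ libraries.

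The libraries had total counts of 44045337 to 50077827 in Sf3b1 K700E/+ and 38785471 to 40702174 in Sf3b1 +/+ cells, of which events with these acceptor pairs held 102942 to 119554 and 92932 to 100977 reads. Sf3b1 itself was at 760, 769 and 746 CPM in Sf3b1 K700E/+ libraries and 729, 743 and 757 CPM in Sf3b1 +/+ libraries, which checks no label because the edit changes a codon. All 10 erythroid markers were at 5 CPM or more, with summed levels of 9300 to 15200 CPM and 11100 to 15500 CPM in Sf3b1 K700E/+ and Sf3b1 +/+ libraries. Granulocyte and macrophage markers summed to 1.20 to 1.65 CPM in Sf3b1 K700E/+ and 6.25 to 13.9 CPM in Sf3b1 +/+ libraries with 2 of 6 (Elane, S100a8) at 0, and mast cell and basophil markers to 0.682 to 1.67 and 8.13 to 30.4 CPM with 1 of 4 (Mcpt8) at 0. Of 4 lymphoid markers, 3 were at 0 in every library. The part of these low levels in the acceptor results was not tested.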

How the data were processed

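The acceptor pairs, gene lists and naming rule were chosen with earlier results of these data known. The authors assembled events from the reads with KisSplice, placed them with KisSplice2refgenome and deposited packed read numbers of both paths, summed here over the 2 read files of each library. They also deposited a raw count per gene for 56748 genes; the submitters' processing notes name STAR 2.7.9, DESeq2 1.30.1 and GRCm39, and the annotation release is not given in the sources used here. Deposited PSI values, a fraction per library, entered only an alternative.

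PSI was the share of longer-path reads (both boundaries and the variable part, reads over both boundaries counted once) after division by path length. Path counts of all events that reached 10 reads in each library were fitted in edgeR 4.0.16 (R 4.3.3). Library, path and the interaction of path with genotype were the terms, and the interaction was tested with the quasi-likelihood F test, adjusted by Benjamini-Hochberg over 18114 events. Genes were tested likewise after filterByExpr and TMM, and CPM are TMM-scaled. Both scripts were checked on simulated data.

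The rule named the 12 largest rises and 6 largest falls, the 3 largest of each annotation class and direction, called pairs in the gene lists, the 4 uncalled pairs with most reads, and uncalled pairs in human SF3B1 target genes. Pairs outside it are marked as chosen after their values were seen. No genome of the deposited build was used here, so sequences come from GENCODE release 21 transcripts on GRCm38, a step added after the data were seen. They were read for named pairs with a readable variable part whose downstream acceptor lies in coding sequence of at least 1 transcript. Stretches with over 30 bases in a UTR of any transcript were left out. The 6 shown are only a part of the stretches read. Among uncalled pairs not shown, the variable part without its last 3 bases held 47.1% C or T in Kansl3 and 88.9% in a Pcbp2 pair 12 nucleotides apart. Library deviations from genotype means over 8771 genes correlated between equal replicate numbers (0.624, 0.48 and 0.479), so the numbers were taken to pair the libraries. Replicates 2 and 3 also correlated with each other across genotypes, less strongly (0.249 and 0.191), and the other unequal numbers correlated negatively. The main fits of events and genes hold no replicate term, and the pairing entered only as an alternative. The limit of a count of 0 is 3 reads of the total and covers counting error only. No 2 libraries were copies (chi-square per degree of freedom of at least 5.43).

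Alternatives changed the test (DESeq2 1.42.0, limma 3.58.1), PSI definition, coverage minimum, PSI threshold, events, normalization, low-count filter, replicate block and libraries. One marker list is not reported here.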

Additional observations from a re-analysis of the deposited data

How the results depend on the processing

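The 147 higher, 19 lower and 104 higher calls with an unannotated upstream acceptor became 128, 16 and 92 with DESeq2. They became 124, 16 and 90 with limma on the log2 ratio of longer-path to shorter-path reads, not divided by path length. With the deposited PSI they were 134, 22 and 93, but only the PSI difference changed there, and the adjusted p of the fit above was kept. No call turned round under any alternative run. With the replicate number as a block the counts were 151, 20 and 105, and all 147 and 19 calls were kept. The host genes of the pairs, 120 higher and 186 lower, were 155 and 224 with the replicate block. A PSI difference over 0.20 left 85, 12 and 58 calls, by construction, and without events flagged as complex, paralogous or holding a SNP 344 pairs were tested and 9 were called lower. A coverage minimum of 20 reads left 519 pairs with 130 higher and 14 lower calls, and one of 5 reads gave 659 pairs with 154 and 19. Leaving out 1 library at a time gave 130 to 145 higher calls, 16 to 21 lower calls and 94 to 102 with an unannotated upstream acceptor. It gave 98 to 141 higher and 141 to 205 lower host genes. The share of all genes called under the block or without 1 library was not set beside these host gene counts. The alternative that counts only the spliced junction of the longer path was not run, because the orientation of its boundaries is not fixed in the deposited values. In its place, chosen after seeing the data, the boundary with fewer reads gave 146, 18 and 107 calls among 571 pairs, of which 133 and 16 were among the higher and lower calls above. Depth limits the pairs with few reads: 103 were not tested at 10 reads, and a count of 0 among the 61 reads of Hexdc in Sf3b1 +/+ libraries allows a share of up to 4.92%.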
